A study of Rattus norvegicus with 12 samples.

Results

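The 10 genes described here encode the Notch receptors Notch1, Notch2, Notch3 and Notch4, the ligands Jag1, Jag2 and Dll4, and the target genes Hes1, Hey1 and Heyl, measured in rat skull bone 6 h after surgery. They were taken by symbol: 12 array probes carry one of these 10 names, among 35010 gene names on the array, and the brightest probe over the 12 arrays stood for each gene. All 10 passed a filter on dim probes, as did 22979 genes in all, but Dll4 and Heyl passed it only through arrays of cut bone. The study measured total RNA of calvaria, the flat bone of the skull vault, from rats 10 weeks old on one-colour Agilent arrays, 4 per group. Laser samples came from bone in which an Er:YAG laser, an infrared laser absorbed by water in tissue, had ablated a rectangle of 8 by 3 mm. Bur samples came from bone in which a rectangle of that size was drilled with a rotating bur, and control samples from bone that was stripped of periosteum and not cut. No transgene, knockout or drug is named in the labels. Whether the 4 samples of each group are from different animals is not stated, and p-values here thus refer to the spread between samples.

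Notch receptors sit in the cell membrane and are switched on by ligands of the Jagged and Delta-like families on a neighbouring cell. Ligand binding lets ADAM proteases and then gamma-secretase cut the receptor, and the freed intracellular domain enters the nucleus, joins the DNA-binding protein RBPJ and turns on repressors of the Hes and Hey families. In the skeleton of the mouse the pathway is known for holding mesenchymal progenitors back from becoming osteoblasts, and in vessels for the choice between tip and stalk cells and for the smooth muscle coat.

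RBPJ binds DNA that holds the letters TGGGAA, so the RefSeq promoter windows of the GRCr8 assembly, 250 bases before to 50 bases after a start site, were searched on both strands for them. Windows were at hand for 8 of the 10 genes, and 3 of these held a match: Hes1, Notch3 and Notch4. Among all 33469 windows of this length 25.7% held at least 1 match and 3.85% held 2 or more. The windows of those 3 genes and of Heyl, a target gene whose window held none, are shown 5′ to 3′ on the strand of the gene, with the matched letters in capitals (TTCCCA is the match read from the other strand).
Hes1, chr11:84212996-84213295, minus strand: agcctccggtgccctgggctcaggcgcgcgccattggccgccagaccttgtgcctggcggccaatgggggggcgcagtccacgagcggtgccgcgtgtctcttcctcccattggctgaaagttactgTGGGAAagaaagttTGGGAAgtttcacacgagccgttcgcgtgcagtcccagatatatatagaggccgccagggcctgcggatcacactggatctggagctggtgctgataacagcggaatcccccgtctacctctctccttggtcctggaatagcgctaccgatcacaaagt
Notch3, chr7:11834536-11834835, minus strand: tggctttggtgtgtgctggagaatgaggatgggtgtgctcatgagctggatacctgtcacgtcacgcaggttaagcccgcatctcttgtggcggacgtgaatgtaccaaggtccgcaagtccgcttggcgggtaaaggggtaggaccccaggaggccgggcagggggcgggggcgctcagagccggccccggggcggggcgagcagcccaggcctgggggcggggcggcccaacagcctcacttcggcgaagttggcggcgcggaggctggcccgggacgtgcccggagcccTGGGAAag
Notch4, chr20:4189023-4189322, minus strand: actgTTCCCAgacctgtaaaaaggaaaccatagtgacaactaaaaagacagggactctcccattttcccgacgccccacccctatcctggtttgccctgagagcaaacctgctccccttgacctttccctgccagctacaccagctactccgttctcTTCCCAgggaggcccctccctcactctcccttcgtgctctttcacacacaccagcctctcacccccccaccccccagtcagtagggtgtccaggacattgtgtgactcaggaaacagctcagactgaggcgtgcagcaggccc
Heyl, chr5:140793021-140793320, plus strand: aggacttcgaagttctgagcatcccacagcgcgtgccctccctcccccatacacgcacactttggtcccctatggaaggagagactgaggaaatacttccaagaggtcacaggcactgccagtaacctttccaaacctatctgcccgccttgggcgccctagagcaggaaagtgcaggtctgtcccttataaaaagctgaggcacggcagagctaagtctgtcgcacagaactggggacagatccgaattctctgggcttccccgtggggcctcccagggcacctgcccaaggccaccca
In Hes1 the 2 matches lay on the strand of the gene, beginning 123 and 109 bases before the start site, with 8 bases between them. The first of them was part of the longer GTGGGAA, which 6.29% of all windows held. The Notch3 match began at base 43 after the start, and the 2 Notch4 matches lay on the opposite strand at 246 and 93 bases before it. The E box CACGTG, to which Hey proteins bind, was in 6.42% of all windows and in none of the 9 windows of the Notch genes. The N box CACNAG, bound by Hes proteins, was in 43.1% of all windows, and 11.2% held 2 or more. The windows of Hes1 and Notch1 held 4 each, that of Notch4 held 2 and that of Notch3 held 1. A match of letters is a description and shows no binding.

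Between 67.8% and 73.7% of the spots of an array that were not control spots stood well above background, 0 of them were saturated, and replicate arrays correlated with r from 0.946 to 0.981. The 4 control arrays lay on 1 slide. The 8 arrays of cut bone lay on 2 others, each holding 2 laser and 2 bur arrays. The raw log2 signal of spike-in spots was 3.21 higher on arrays of cut bone than on those of control bone. Treatment and slide, scan or array preparation therefore cannot be told apart wherever control bone is the comparator, while laser and bur arrays shared slides. All 12 bone markers were measured, among them Runx2, Alpl and Bglap, and their summed signal, in multiples of the 75th percentile signal of the array, was 3410 to 3580 on laser arrays, 2550 to 3930 on bur arrays and 1530 to 2000 on control arrays.

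The first question was which Notch genes differ between laser-ablated and uncut bone. Notch1 and Notch4 fell and Notch3, Jag2, Hes1, Hey1 and Heyl rose, while Notch2, Jag1 and Dll4 did not pass (limma, Benjamini-Hochberg over all 22979 genes, threshold 0.05). That is 5 of 10 higher and 2 of 10 lower, beside 32.2% of all genes higher and 17.6% lower, so calls in both directions were common among genes at large. Over the 8 members well above background on all 12 arrays the count was 4 higher and 2 lower. In bur-drilled bone against uncut bone Notch3, Jag2 and Heyl rose and Notch1 fell, 3 of 10 higher and 1 of 10 lower, beside 32.7% and 18.3% of all genes. Among the same 8 members the bur count was 2 higher and 1 lower. Both comparisons use the same 4 control arrays and are given side by side. The median log2 fold change of the 10 members was 0.61 for laser and 0.46 for bur against control, beside 0.21 and 0.23 over all genes. Those 10 include Dll4 and Heyl, and over the 8 members well above background on all 12 arrays the medians were 0.34 and 0.27. In the dimmest 20% of genes, which holds Dll4 and Heyl, the median of all genes was 0.56 for laser and 0.69 for bur. It was 0.01 and 0.02 in the middle 20%. Under the other scalings the median over all genes was 0.03 to 0.10 for laser and -0.01 to 0.15 for bur. The level against which a rise is read thus depends on brightness and on the scaling. Relative to the median of all genes, over all 5 scalings, Jag2 was higher by 0.48 to 1.07 in laser bone and by 0.51 to 1.05 in bur bone, and Notch1 lay at -1.15 to -0.79 in laser bone and -0.90 to -0.51 in bur bone.

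**Figure D1:**
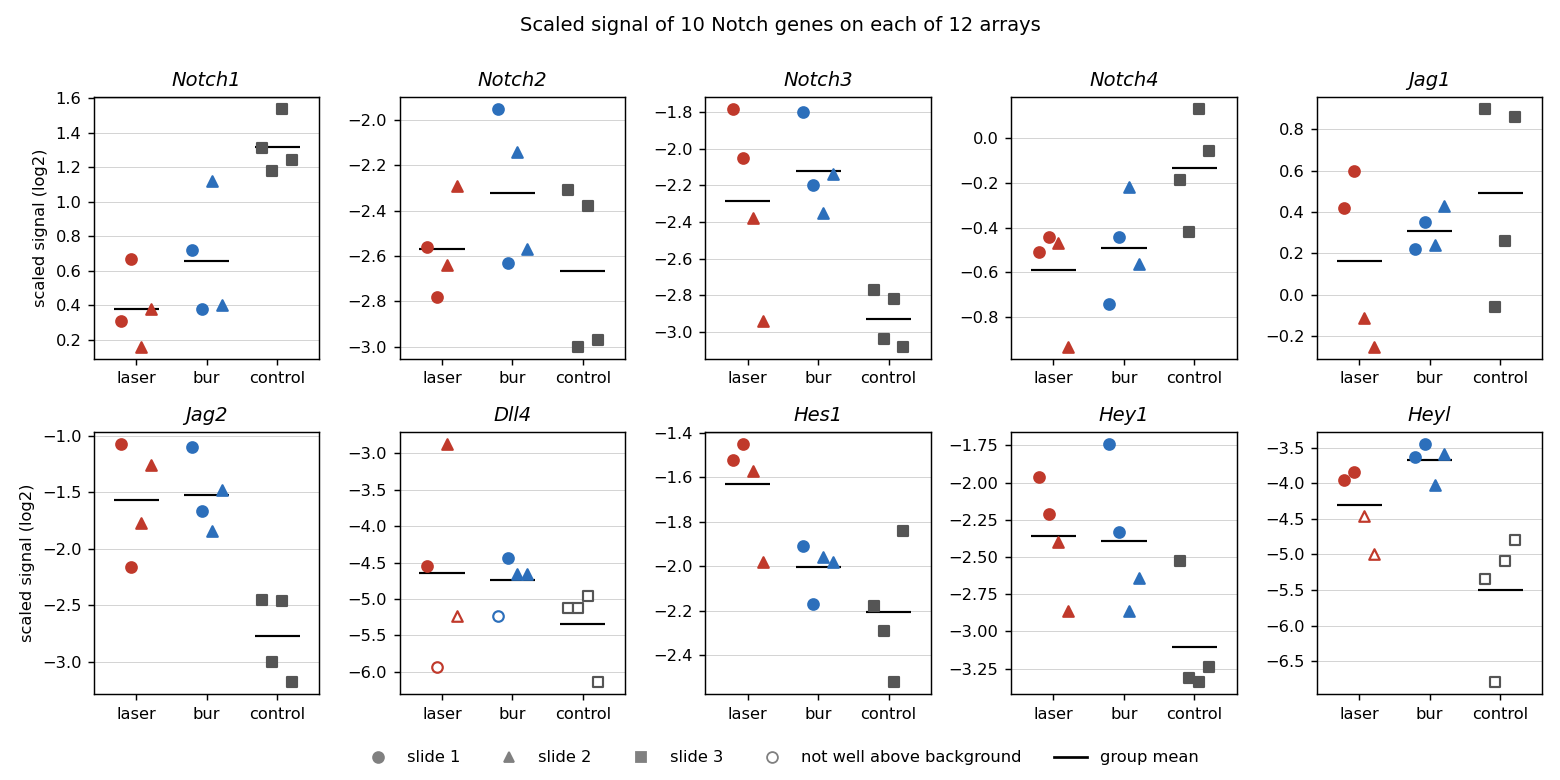
Scaled signal (log2 of processed signal less the 75th percentile of the array) of the 10 Notch genes on each of 12 arrays, with laser, bur and control from left to right, marker shape for slide, open markers where the probe was not well above background, and a bar for the mean of 4 arrays. Jag2 lies at -2.16 or above on every laser and bur array and at -2.45 or below on every control array, and Notch1 lies at 1.12 or below on every laser and bur array and at 1.18 or above on every control array.

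The receptors did not move as one. Values are log2 processed signals less the 75th percentile of the array, so a gene at 0 is as bright as that percentile, and levels of different probes are not compared. Notch1, the receptor best known from T cell and vessel development, read 0.31, 0.67, 0.16 and 0.38 on the laser arrays, 0.72, 0.38, 1.12 and 0.40 on the bur arrays and 1.31, 1.18, 1.54 and 1.24 on the control arrays. Every laser array and every bur array lay below every control array, with bur array 3 nearest to them. The array design places its probe at chr3:4631829-4631888 on the minus strand of RGSCv3.4. The Notch1 mean was 0.38 ± 0.21 in laser, 0.65 ± 0.35 in bur and 1.32 ± 0.16 in control bone (SD, n = 4 each). On the log2 scale Notch1 fell by 0.94 in laser bone (SE 0.18, adjusted p = 0.00203), a 1.92-fold difference, and by 0.66 in bur bone (SE 0.18, adjusted p = 0.0115), a 1.59-fold difference. The laser call was kept in 22 of 22 other settings. With the bur arrays of slide 2 alone the bur difference was -0.56 (adjusted p = 0.0901). Markers of blood and marrow cells, a class that includes cells expressing Notch1, were lower too: 10 of the 11 passed as lower in each comparison. The shares of all genes lower were 17.6% for laser and 18.3% for bur. The summed signal of these markers was 34.9 to 213 on laser arrays, 74.4 to 178 on bur arrays and 164 to 237 on control arrays. By the mean of their log2 signals cut bone and control did not overlap. That mean was -1.12 to 0.32 on laser arrays, -0.67 to 0.70 on bur arrays and 1.38 to 1.70 on control arrays. In bulk RNA, fewer cells of a type and less RNA per cell cannot be told apart, and the part of blood and marrow cells in the Notch1 difference was not tested.

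Notch2, the receptor whose gain of function thins bone in Hajdu-Cheney syndrome in humans, read -2.56, -2.78, -2.64 and -2.29 on the laser arrays, -1.95, -2.63, -2.14 and -2.57 on the bur arrays and -2.31, -3.00, -2.38 and -2.97 on the control arrays. The 3 groups overlapped. It did not pass in laser bone (log2 0.10, 95% interval -0.38 to 0.57, adjusted p = 0.727) or in bur bone (0.34, -0.13 to 0.81, adjusted p = 0.201).

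Notch3, the receptor of vascular smooth muscle cells and pericytes, read -1.78, -2.05, -2.38 and -2.94 on the laser arrays, -1.80, -2.20, -2.35 and -2.14 on the bur arrays and -2.77, -3.04, -2.82 and -3.08 on the control arrays. All bur arrays lay above all control arrays, and laser array 4 lay among the controls while the other 3 lay above them. Notch3 rose by 0.80 in bur bone (SE 0.23, adjusted p = 0.0135), a 1.74-fold difference, which did not pass with normexp background correction (0.22, adjusted p = 0.207). In laser bone it rose by 0.64 (SE 0.23, adjusted p = 0.0362, exact permutation p = 0.0857), but the call was kept in 10 of 22 other settings. It was lost with the laser arrays of slide 2 alone (0.27, adjusted p = 0.32), while with those of slide 1 the difference was 1.01. It was also lost without laser arrays 1, 2 or 3 (0.47, 0.56 and 0.67) or control arrays 2, 3 or 4 (0.60, 0.68 and 0.59).

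Notch4, a receptor mostly of endothelial cells, read -0.51, -0.44, -0.47 and -0.93 on the laser arrays, -0.74, -0.44, -0.22 and -0.56 on the bur arrays and -0.19, -0.42, 0.13 and -0.06 on the control arrays. Every laser array lay below every control array, with laser array 2 at -0.44 and control array 2 at -0.42 as the closest pair, and bur and control overlapped. Notch4 fell by 0.45 in laser bone (SE 0.17, adjusted p = 0.0418) and did not pass in bur bone (-0.36, 95% interval -0.72 to 0.01, adjusted p = 0.0949). The laser call was kept in 9 of 22 other settings and was lost without laser arrays 1, 3 or 4 (-0.48, -0.49 and -0.34) or control arrays 1, 3 or 4 (-0.47, -0.37 and -0.43). A further Notch4 probe was well above background on 2 control arrays and on 0 arrays of cut bone, and was too dim for a test.

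Of the ligands, Jag2 had the clearest difference and Jag1 none that passed. Jag2, a ligand needed for limb and palate development in the mouse, read -1.07, -2.16, -1.77 and -1.26 on the laser arrays, -1.10, -1.66, -1.84 and -1.48 on the bur arrays and -2.45, -3.00, -2.46 and -3.18 on the control arrays. All arrays of cut bone lay above all control arrays, and laser and bur covered much the same range. Its probe lies at chr6:137909983-137910029 on the minus strand of the same build. The Jag2 mean was -1.56 ± 0.49 in laser, -1.52 ± 0.32 in bur and -2.77 ± 0.37 in control bone (SD, n = 4 each). Jag2 rose by 1.21 in laser bone (SE 0.27, adjusted p = 0.00413), a 2.31-fold difference, and by 1.25 in bur bone (SE 0.27, adjusted p = 0.00345), a 2.38-fold difference. Both calls were kept in 22 of 22 other settings, with differences from 0.51 to 1.41 for laser and 0.50 to 1.40 for bur, the lowest of them with normexp background correction.

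Jag1, the Jagged ligand mutated in Alagille syndrome in humans, read 0.42, 0.60, -0.11 and -0.25 on the laser arrays, 0.22, 0.35, 0.24 and 0.43 on the bur arrays and 0.90, -0.06, 0.26 and 0.86 on the control arrays. The bur arrays kept within a narrow range that lies inside that of the controls, and the laser arrays of slide 1 lay above those of slide 2. It did not pass in laser bone (-0.33, 95% interval -0.87 to 0.21, adjusted p = 0.284) or in bur bone (-0.18, -0.72 to 0.36, adjusted p = 0.549).

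Dll4, the Delta-like ligand of endothelial tip cells, was too dim to follow on most arrays. It was well above background on 2 laser arrays, 3 bur arrays and 0 control arrays. It read -4.54, -5.94, -2.87 and -5.23 on the laser arrays, -5.23, -4.43, -4.66 and -4.66 on the bur arrays and -5.12, -5.13, -4.96 and -6.14 on the control arrays. Laser array 3 stood far above all others, and the groups overlapped. It did not pass in laser bone (0.69, 95% interval -0.51 to 1.89, adjusted p = 0.304) or in bur bone (0.59, -0.61 to 1.79, adjusted p = 0.377), with control readings at background. Without laser array 3 the laser difference was 0.10. A further Dll4 probe was well above background on 2 laser arrays, 1 bur array and 0 control arrays, and read -3.98, -4.60, -6.12 and -6.61 on the laser arrays, with laser array 3 not raised.

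Of the target genes, Hes1 and Hey1 were measured on all 12 arrays, and Heyl rests on controls at background. Hes1 and Hey1 passed in laser bone and not in bur bone. For Hey1 this is no contrast between the tools, since it differed from control by 0.75 and 0.71 and between laser and bur by 0.03. Hes1, the repressor of the Hes family whose oscillation times many developmental steps, read -1.52, -1.45, -1.57 and -1.98 on the laser arrays, -1.91, -2.17, -1.96 and -1.98 on the bur arrays and -2.18, -2.29, -2.52 and -1.84 on the control arrays. Laser arrays 1 to 3 lay above all other arrays, and control array 4 lay above laser array 4. The probe lies at chr11:72605138-72605197 on the minus strand of RGSCv3.4. Hes1 rose by 0.58 in laser bone (SE 0.17, adjusted p = 0.0143, exact permutation p = 0.0571), a 1.49-fold difference. The call was kept in 20 of 22 other settings and was lost with normexp background correction (0.23, adjusted p = 0.114) and with the laser arrays of slide 2 alone (0.43, adjusted p = 0.155). In bur bone Hes1 did not pass (0.20, 95% interval -0.16 to 0.57, adjusted p = 0.316).

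Hey1, a Hey repressor that in the mouse is needed with Hey2 in arteries, read -1.96, -2.21, -2.40 and -2.86 on the laser arrays, -1.74, -2.33, -2.86 and -2.64 on the bur arrays and -2.53, -3.31, -3.34 and -3.24 on the control arrays. Control array 1 lay within the range of the cut bone and the other 3 controls below it. Hey1 rose by 0.75 in laser bone (SE 0.28, adjusted p = 0.0455, exact permutation p = 0.0571) and did not pass in bur bone (0.71, SE 0.28, adjusted p = 0.0526). The laser call was kept in 10 of 22 other settings. It was lost without laser arrays 1, 2 or 3 (0.61, 0.70 and 0.76) or control arrays 2, 3 or 4 (0.68, 0.67 and 0.70). Without control array 1 the bur difference was 0.91 (adjusted p = 0.0221), and without bur array 3 it was 0.87 (adjusted p = 0.0294), so both passed.

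Heyl, a Hey repressor known in the mouse as a Notch3 target in vascular smooth muscle, read -3.96, -3.84, -4.46 and -4.99 on the laser arrays, -3.64, -3.45, -4.03 and -3.59 on the bur arrays and -5.34, -6.79, -5.09 and -4.80 on the control arrays. Its probe, at chr5:142561111-142561170 on the plus strand of RGSCv3.4, was well above background on 2 laser arrays, 4 bur arrays and 0 control arrays. All bur arrays lay above all control arrays, and laser array 4 lay below control array 4. Heyl was at least 2.05-fold higher in bur bone (limma adjusted p = 0.00377), where such a bound divides the brighter mean by the background limit of the dimmer group. The same ratio was 1.32 in laser bone (limma adjusted p = 0.0286). Laser arrays 3 and 4, not well above background, are in that laser mean, so 1.32 is no strict lower limit. Heyl passed the filter on dim probes only through cut bone, so both p-values draw on that selection and add no support for a rise. The processed signals of Heyl were 1.96 to 25.8 over the 12 arrays. Normexp background correction adds an offset of 50 to every probe, which by construction shrinks the fold of a probe this dim. With it the differences were 0.02 in bur bone (adjusted p = 0.902) and -0.01 in laser bone (adjusted p = 0.941), so neither passed and the laser one turned direction. The laser call was kept in 12 of 21 other settings. It was also lost without laser array 1 (1.07) or laser array 2 (1.03), and without laser array 4, where Heyl was lowest, the difference was 1.42. Without control array 2, which read lowest of all, it was 0.76 and the call was kept. Laser and control arrays did not overlap for 1 member that was higher and 2 that were lower, beside 30.8% and 17.8% of genes with a value on all 12 arrays, and bur and control arrays for 3 and 1, beside 30.2% and 15.7%. These counts lie near or below those shares. The exact permutation p is then 0.0286, the smallest that 4 against 4 arrays can give.

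**Figure D2:**
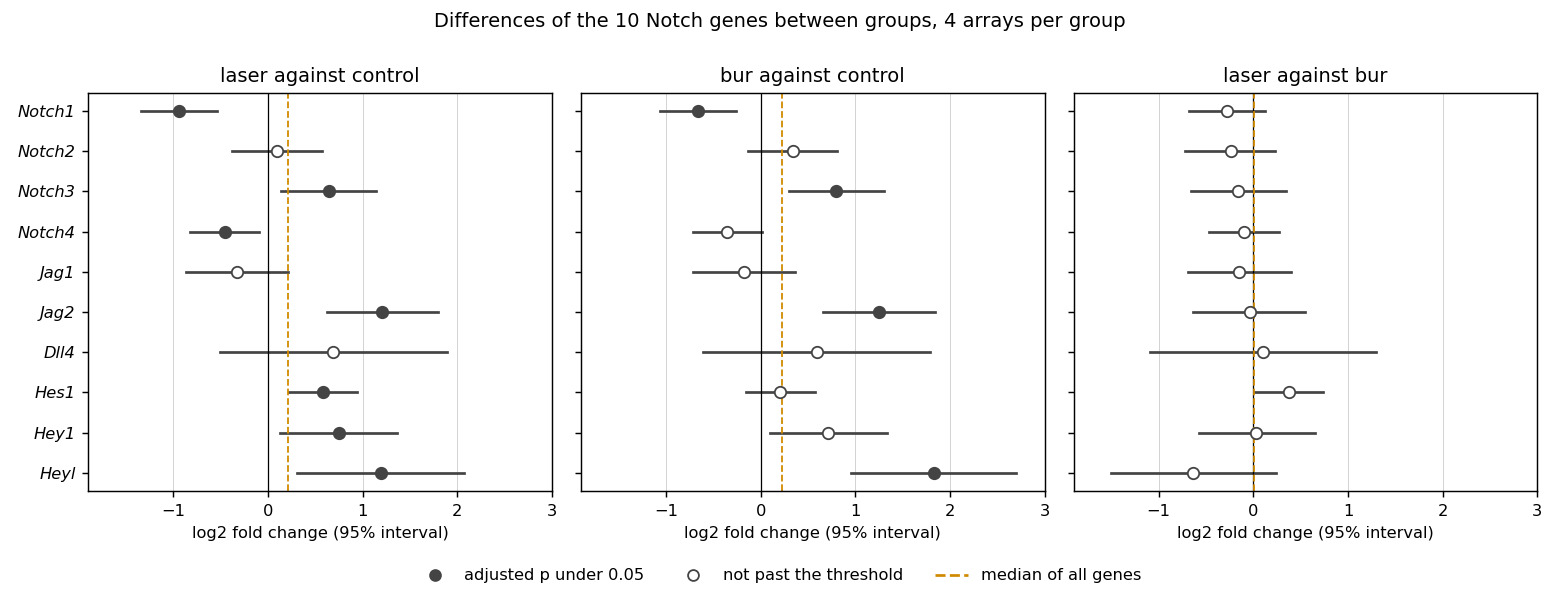
Log2 fold change of each of the 10 Notch genes with its 95% interval in laser against control, bur against control and laser against bur, 4 arrays per group, filled where the adjusted p was under 0.05, with the median of all genes as a dashed line. Notch1 lies left of 0 and Jag2 right of it in both comparisons with control, and no gene is filled in laser against bur. For Dll4 and Heyl, which no control array measured, the points stand for signals partly at background.

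The authors' deposited table of comparisons holds 9 of the 10 genes. In the authors' deposited table Notch1 was at -0.83 in laser bone (adjusted p = 0.00515) and -0.61 in bur bone (adjusted p = 0.0206). In the authors' deposited table Jag2 stood at 0.88 (adjusted p = 0.00174) and 0.86 (adjusted p = 0.00193). For Hey1 the authors' deposited table gives 0.45 in laser bone (adjusted p = 0.00752) and 0.35 in bur bone (adjusted p = 0.0242), and for Heyl 0.20 (adjusted p = 0.32) and 0.39 (adjusted p = 0.0675), so Heyl passed in neither there. Notch3 passed in both, at 0.48 (adjusted p = 0.0286) and 0.50 (adjusted p = 0.0239). Hes1 passed in laser bone (0.50, adjusted p = 0.0362) and not in bur bone (0.15, adjusted p = 0.473). Notch4 did not pass there in laser bone (-0.24, adjusted p = 0.2) or in bur bone (-0.21, adjusted p = 0.246), nor did Notch2 or Jag1 in either.

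Laser against bur asks whether the tool matters for these genes, and it is the comparison that the slides do not touch. Of the 10 members 0 passed by limma, beside 0.00435% of all genes, and 1 had an unadjusted p under 0.05, beside 6.52% of all genes. That 1 was Hes1, at -1.63 ± 0.24 in laser and -2.00 ± 0.12 in bur bone (SD, n = 4 each), a difference of 0.38 with a 95% interval of 0.01 to 0.74 (adjusted p = 0.747, exact permutation p = 0.0857). Within slide 1 the laser arrays exceeded the bur arrays in Hes1 by 0.56, and within slide 2 by 0.20, with 2 arrays per tool in each. Heyl differed by -0.64 (95% interval -1.51 to 0.24), at -0.36 within slide 1 and -0.91 within slide 2. Notch1 differed by -0.28 (95% interval -0.68 to 0.12), at -0.05 within slide 1 and -0.50 within slide 2. Jag2 differed by -0.04 with an interval of -0.64 to 0.55, so 4 arrays per tool leave room for a difference of that size in either direction. The intervals of the other 6 members all held 0, the widest being that of Dll4 (-1.09 to 1.30).

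**Figure D3:**
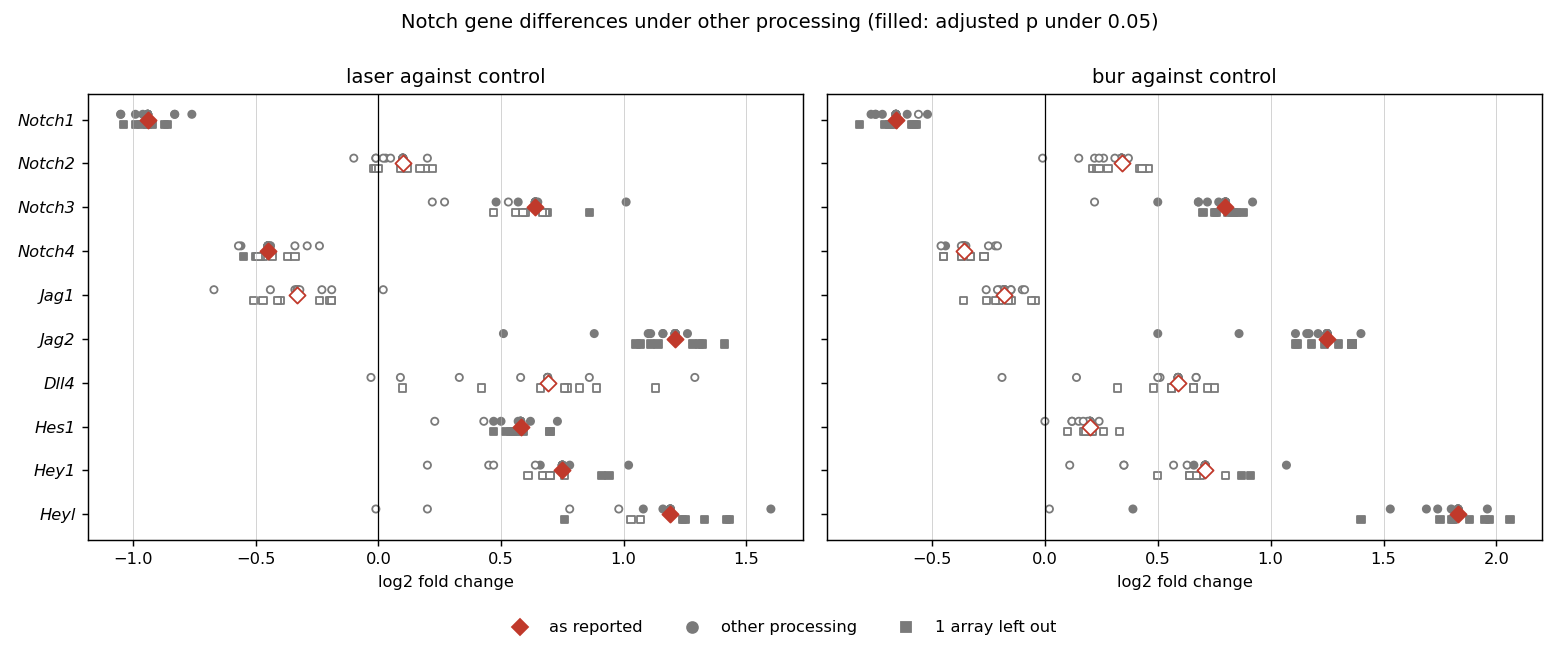
Log2 fold change of the 10 Notch genes in laser against control and bur against control as reported (diamonds), under other processing (circles) and with 1 array left out (squares), filled where the adjusted p was under 0.05. Jag2 stays filled in every setting of both panels and Notch1 in every setting of the laser panel, while Heyl ranges from -0.01 to 1.60 in the laser panel.

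Besides the 10 genes, 54 other genes of the pathway were listed by role, and 51 were measured. In laser bone 15 of the 51 rose and 6 fell, and in bur bone 19 rose and 3 fell, with medians of 0.17 and 0.31. Of these, Hey2 and Maml3 were well above background on 0 control arrays and passed the filter only through cut bone. In a refit limited to probes well above background on all 12 arrays, 48 of the genes had such a probe. Of these 48, 12 rose and 6 fell in laser bone and 16 rose and 3 fell in bur bone. A gene whose brightest probe was left out, as for Dtx4, could enter this refit only by another probe. Over all genes 32.2% rose and 17.6% fell in laser bone, and 32.7% rose and 18.3% fell in bur bone. The counts by role below are to be read beside these shares. Between laser and bur 0 of the 51 passed by limma.

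Of the 7 other targets measured 3 rose in each comparison and 0 fell, beside 32.2% of all genes higher in laser bone and 32.7% in bur bone. Of these 3 targets 1, Hey2, passed the filter only through cut bone. Hey2, a Hey repressor of the heart and arteries, read -4.10, -4.13, -4.31 and -3.70 on the laser arrays, -5.26, -4.25, -4.16 and -4.22 on the bur arrays and -6.58, -6.76, -5.94 and -6.52 on the control arrays. It was well above background on 4 laser, 3 bur and 0 control arrays. Hey2 was at least 1.68-fold higher in laser bone (limma adjusted p = 0.000149). The same ratio was 1.26 in bur bone (limma adjusted p = 0.000364). Bur array 1, not well above background, is in that bur mean, so 1.26 is no strict lower limit. Both p-values draw on the filter that Hey2 passed only through cut bone. Ccnd1, which encodes the cell cycle protein cyclin D1 and has many inputs besides Notch, rose by 1.71 in laser bone (SE 0.24, adjusted p = 0.00036) and by 0.94 in bur bone (SE 0.24, adjusted p = 0.00773). All 8 markers of proliferating cells fell in each comparison, with Ccnd1 not among them, beside 17.6% and 18.3% of all genes lower. Bhlhe40, a repressor that also answers to hypoxia and the clock, rose by 0.83 in laser and by 0.90 in bur bone.

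Of the 10 nuclear factors measured 4 rose and 2 fell in laser bone, and 5 rose and 2 fell in bur bone. Rbpj, the DNA-binding partner of all 4 receptors, read 3.27, 2.90, 2.91 and 2.97 on the laser arrays, 3.13, 2.80, 2.85 and 3.12 on the bur arrays and 2.25, 2.13, 2.24 and 2.31 on the control arrays. Every array of cut bone lay above every control array, and Rbpj rose by 0.78 in laser bone (SE 0.13, adjusted p = 0.00082) and by 0.74 in bur bone (SE 0.13, adjusted p = 0.00111). Its further probes did not follow: 1 read 0.32 and 0.55 and did not pass, and the other read -0.26 for laser and fell by 0.48 for bur (adjusted p over probes 0.0444). Maml3, a Mastermind coactivator, was at least 1.37-fold higher in bur bone, with 0 control arrays well above background. The same ratio was 1.35 in laser bone. Laser array 2, not well above background, is in that laser mean, so 1.35 is no strict lower limit. Maml3 passed the filter only through cut bone, and its calls draw on that selection. Snw1, a coactivator that is also part of the spliceosome, fell by 1.14 in laser bone (SE 0.13, adjusted p = 0.000171) and by 0.91 in bur bone (SE 0.13, adjusted p = 0.00046), and all its arrays of cut bone lay below all control arrays. Spen did not pass by its brightest probe, but a further probe fell by 1.25 in laser and by 1.08 in bur bone (adjusted p over probes 0.000134 and 0.000259). Further Ctbp1 probes fell by 1.18 and 0.67 in laser bone, where its brightest probe did not pass.

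Among the 9 proteases and their partners 3 rose and 1 fell in laser bone, and 4 rose and 1 fell in bur bone. Adam10, the protease that makes the first ligand-dependent cut, fell by 0.70 in laser bone (SE 0.23, adjusted p = 0.0243) and by 0.75 in bur bone (SE 0.23, adjusted p = 0.0181). The gamma-secretase parts Aph1b and Ncstn rose, Aph1b by 0.72 and 0.84 and Ncstn by 0.64 and 0.57 in laser and bur bone. Of the 2 further Aph1b probes 1 rose as well and the other did not pass (-0.16 and -0.26). Furin, which cuts the receptor before it reaches the surface, rose by 0.33 in laser bone and by 0.47 in bur bone.

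Of the 6 enzymes that add sugars to the receptor, Poglut1 rose by 0.68 in laser and by 0.47 in bur bone. Eogt did not pass by its brightest probe, but a further probe rose by 0.95 and 1.17 (adjusted p over probes 0.00529 and 0.00185). Lfng and Mfng, Fringe enzymes that set which ligands a receptor prefers, fell by 0.62 and 0.86 in laser bone (adjusted p = 0.0304 and 0.0448), and their bur differences of -0.47 and -0.55 did not pass. Of 6 other ligands Dll3, known as an inhibitor inside the cell, rose by 0.68 in laser and by 0.70 in bur bone, while Dll1 and Dlk1 did not pass. Of 13 regulators 3 rose and 1 fell in laser bone, and 5 rose and 0 fell in bur bone. Itch, a ubiquitin ligase, rose by 0.87 and 0.81, while its further probe did not pass (-0.51 and -0.32). Dtx4, an E3 ligase of the Deltex family, rose by 1.67 in laser bone over 3 of the 4 laser arrays, since the spot on laser array 1 was marked as an outlier and dropped, and by 1.75 in bur bone. Its further probe read 0.00 and 0.22 and did not pass. Numbl, a Numb-like adaptor, rose by 0.81 and 0.98. Nrarp, a feedback inhibitor that Notch itself turns on, read -1.85, -1.67, -2.22 and -1.91 on the laser arrays, -1.88, -1.73, -1.12 and -1.50 on the bur arrays and -1.09, -1.19, -1.24 and -1.39 on the control arrays. It fell by 0.68 in laser bone (SE 0.18, adjusted p = 0.00881), opposite in direction to Hes1, Hey1 and Hey2, and did not pass in bur bone (-0.33, adjusted p = 0.135).

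**Figure D4:**
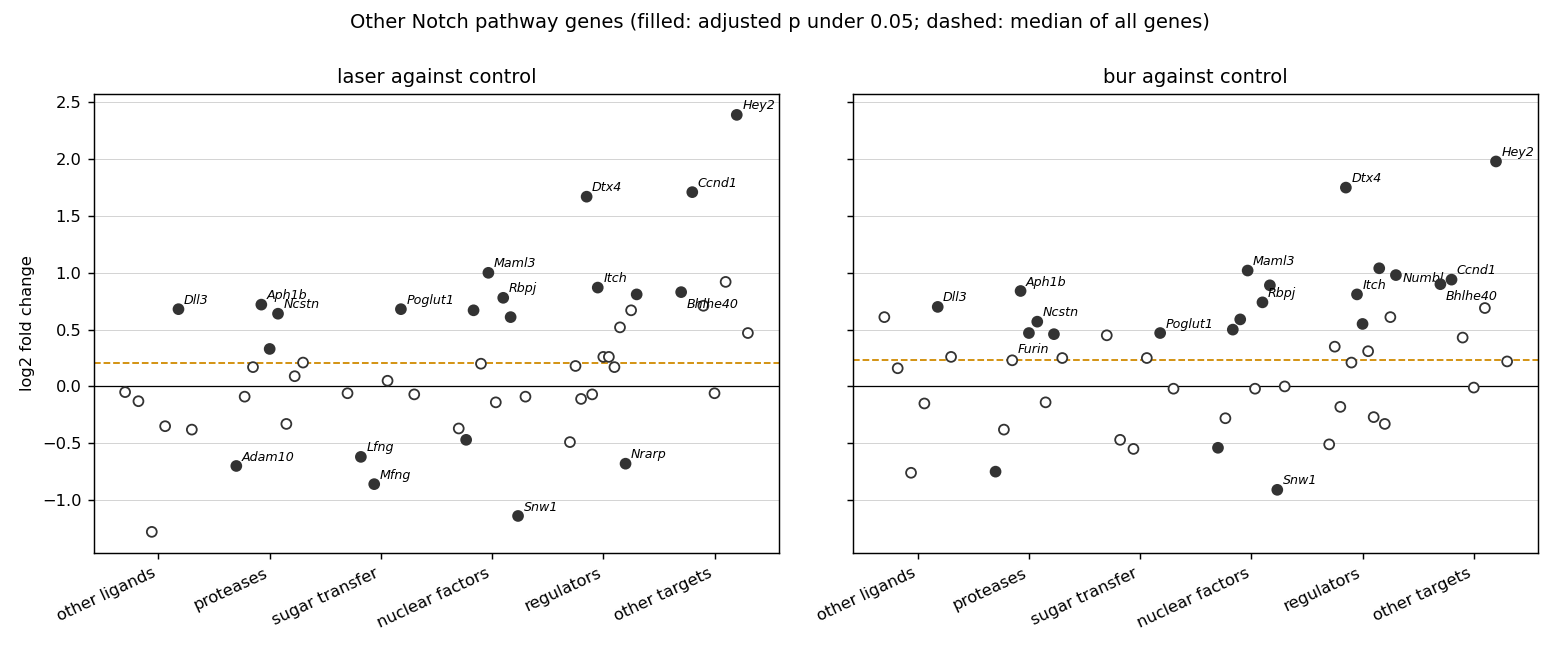
Log2 fold change of 51 other Notch pathway genes, by role, in laser against control and bur against control, filled where the adjusted p was under 0.05, with the median of all genes dashed. Filled points lie on both sides of 0 among proteases and nuclear factors and above 0 among other targets, and for Hey2 and Maml3 the control arrays were at background.

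Markers of the cells that carry these genes moved unevenly beside them. Of 13 endothelial markers 1 rose and 2 fell in laser bone and 3 rose and 1 fell in bur bone, and their summed signal was 32.4 to 48.2 on laser arrays, 37.5 to 49.6 on bur arrays and 28.7 to 37.1 on control arrays. Pecam1 and Cdh5, both on the endothelial list, did not pass in laser bone (0.39 and 0.17), and Pecam1 rose by 0.69 in bur bone. Others went opposite ways: Vwf, von Willebrand factor, rose by 1.02 in laser and by 0.82 in bur bone, and Flt1, a VEGF receptor, by 0.84 in bur bone. Tie1, an endothelial receptor, fell by 1.93 in laser and by 1.95 in bur bone, and Cldn5, a tight junction protein, by 0.80 in laser bone. Of 10 measured markers of mural cells, the pericytes and smooth muscle around vessels, 2 rose and 1 fell in laser bone and 3 rose and 0 fell in bur bone. Their summed signal was 30.3 to 39.6 on laser arrays, 35.5 to 40.9 on bur arrays and 13.6 to 21.7 on control arrays, so by this sum, which the brightest genes set, groups of cut bone and control did not overlap. By the mean of their log2 signals they did, at 0.16 to 1.05 on laser arrays, 0.74 to 1.18 on bur arrays and -0.03 to 0.56 on control arrays, with laser array 4 at 0.16. Cspg4, the NG2 proteoglycan of pericytes, rose by 1.54 in laser and by 1.65 in bur bone, and Acta2, smooth muscle actin, by 2.10 and 2.43. Pdgfrb, a receptor of mural cells, rose by 0.90 in bur bone. In laser bone Abcc9, a potassium channel subunit of pericytes, fell by 0.52 (adjusted p = 0.0206), and Des, Mcam and Myh11 did not pass (-0.76, -0.39 and -0.08). Notch3 and Heyl, the members known from mural cells, were also higher in cut bone, and the part of mural cells in their differences was not tested. None of the endothelial and mural markers measured had 0 arrays above background in any group. Markers of neural tissue fell in 7 of 10 cases in laser and 6 of 10 in bur bone, and 0 of 7 muscle markers passed. Of 5 skin markers 4 rose and 1 fell in each. Over all genes 32.2% rose and 17.6% fell in laser bone, and 32.7% and 18.3% in bur bone. Krt5, a skin marker, was well above background on 0 control arrays and passed the filter only through cut bone, and Krtdap was so on 1 control array. Elavl3, a neural marker, was well above background on 0 laser arrays, 1 bur array and 4 control arrays.

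**Figure D5:**
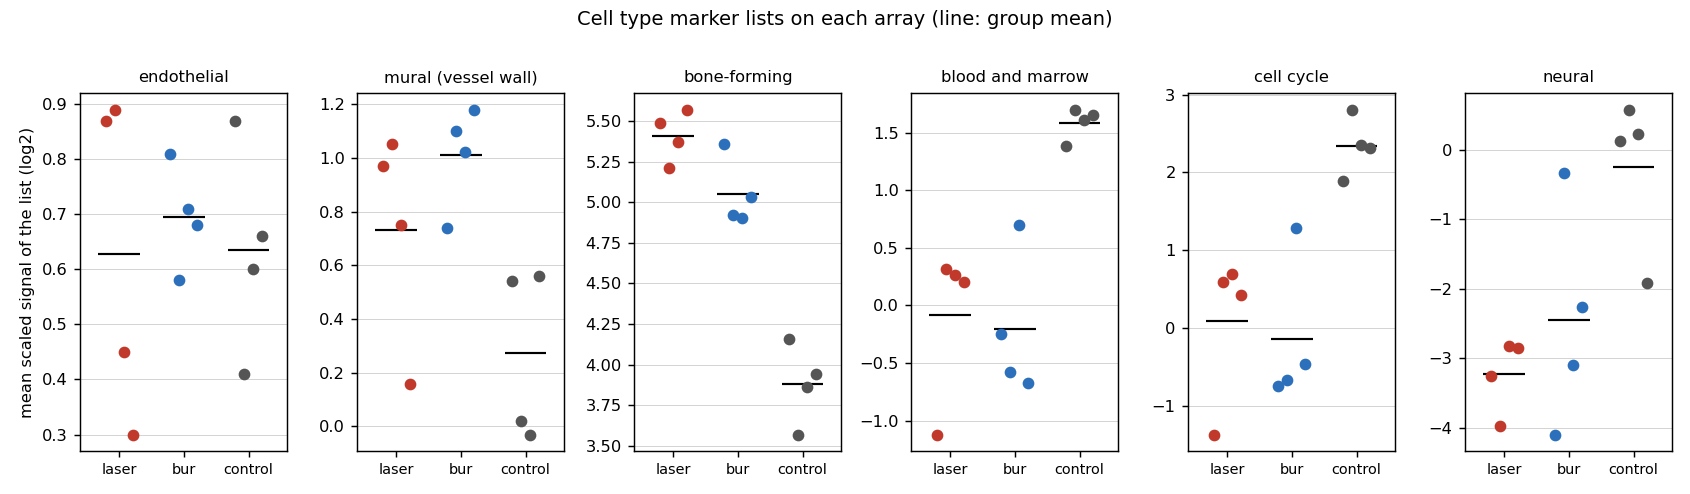
Mean scaled signal (log2) of 6 marker lists on each of 12 arrays, with laser, bur and control from left to right and a bar for the group mean. Bone-forming markers lie higher on every array of cut bone than on every control array, blood and marrow markers lie lower, and endothelial markers overlap.

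As a description, the genes whose profile over the 12 arrays was most like that of each member were found by the smallest root mean square difference of log2 values centred on each gene's mean, among 12638 genes with an official symbol. Jag2 was nearest to Lgr4, an R-spondin receptor, at 0.14, where its own SD over the arrays was 0.71. Notch1 was nearest to Kcnk13, a potassium channel, at 0.13, with an SD of 0.47. Jag1 was nearest to Lama5, a laminin chain of basement membranes, at 0.14 and next to Rasip1, a gene of endothelial cells, at 0.19. Heyl was nearest to Rhoj, a small GTPase of endothelial cells, at 0.29 with an SD of 0.97, and Notch4 to Aig1 and C1qa, both at 0.13, with an SD of 0.29. Notch3 was nearest to Vps13a at 0.14, Hes1 to Cwc15 at 0.13, Hey1 to Fbxo17 at 0.16, Notch2 to Thoc6 at 0.15 and Dll4 to Gpr173 at 0.51. The 12 arrays share slides and group means, so such likeness carries no test.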

How the data were processed

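RNA of 12 calvarial samples was read on one-colour arrays, and samples were grouped by their titles. The deposited intensity values are the background-subtracted processed signals of Agilent Feature Extraction 11.0.1.1, per the submitters' processing notes. A deposited series table holds quantile-normalized log2 values. The authors' comparison tables list per probe a log2 fold change with raw and adjusted p-value, and their model is not stated in these sources. From the 62976 spots per array, control spots and outlier-marked spots were left out, log2 signals were averaged per probe (45598 probes), and the 75th percentile of each array was taken off. Probes well above background on at least 4 of 12 arrays were kept (30121), and the brightest stood for its gene name (22979 genes). Names came from RefSeq by accession for 21184 probes and otherwise from the files.

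The 3 comparisons were fitted in R 4.3.3 by limma 3.58.1 with lmFit and eBayes (all 12 arrays, 1 mean per group, two-sided) and adjusted by Benjamini-Hochberg over all genes at 0.05. The script was tested on simulated data. Exact permutation tests used all 70 assignments, two-sided. A bound (at least N-fold) divides the mean of the brighter group by a mean over the dim arrays, each entered at its background limit or its reading, whichever was greater. The limit is the lowest signal well above background on that array. The bound leaves out the spread between arrays. Arrays of the brighter group that were not well above background entered it at their readings. Scaling hides changes shared by most genes. Named were all 10 members, from each pathway list up to 3 genes per comparison with the smallest adjusted p among those passing, and for each member the most similar profiles. Members, gene lists and the rule were chosen with earlier results of these data known. Marker genes, Dll1, Dlk1 and the genes given for a further probe (Eogt, Spen, Ctbp1, Neurl1 and Numb) were named after their values were seen. Alternatives covered scaling, background correction, filters, probes, blocks, spread models and left-out arrays.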

Additional observations from a re-analysis of the deposited data

Results flagged for a closer look

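Among 30 sets of 4 arrays (10 genes in 3 groups), 3 held 1 array set apart from the other 3 by a gap, as a share of the whole range, above Dixon's critical value for 4 samples, which chance passes in about 1 of 20 sets. Notch4 on laser array 4 read -0.93, with the nearest laser array at -0.51. Hey1 on control array 1 read -2.53, with the nearest control array at -3.24. Dll4 on control array 4 read -6.14, with the nearest at -5.13, and none of these 4 Dll4 readings was well above background.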

How the results depend on the processing

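Of 651 values of single members under other settings, 593 stayed on their side of the threshold, 50 no longer passed and 7 newly passed. The remaining 1 lost its call and turned direction: Heyl in laser against control, -0.01 with normexp. Direction was compared only where the reported or the new value passed. Some values that did not pass changed sign, such as Dll4 in bur bone (0.59 as reported, -0.19 with normexp). The normexp offset of 50 by construction shrinks the folds of other members too, not of Heyl alone. Processed signals were 26.6 to 83.8 for Notch3 and 21.6 to 73.8 for Hey1, for example. The 7 members called in laser against control became 2 with normexp background correction, 4 in the authors' deposited normalized values (9 genes), 4 without a filter on dim probes, 4 with only these groups in the fit, 3 with slide as a block and 2 with the laser arrays of slide 2 alone. Leaving out 1 array gave 3 to 6, with 3 without laser array 1 and 4 without laser arrays 2 or 3 or control arrays 3 or 4. The 4 called in bur against control became 2 with normexp and 4 to 5 with 1 array left out. The 21 other pathway genes in laser against control became 13 with slide 2 alone and 14 to 20 with 1 array left out. The cause was not tested. In laser against bur 0 members passed in any of the 22 settings, and the count over all genes was 0 to 10. Of the bur calls over all genes 64.2% were higher as reported, 51.6% with normexp and 54.1% in the authors' deposited values. Deviations of same-numbered samples from their group means correlated with r above 0 in all 12 pairs. Between laser and bur r was 0.577, 0.0462, 0.529 and 0.403, laser array 2 being closest to bur array 1 (0.203). Differently numbered pairs gave r on both sides of 0, from -0.489 to 0.203 between laser and bur. As 4 of the 12 same-numbered r were under 0.1 and the labels give numbers no shared source, the reported fit did not pair samples. Whether same-numbered samples share a source is not known. With the replicate block 6 members were called in laser and 5 in bur against control: Heyl in laser bone no longer passed (adjusted p = 0.0513) and Hey1 in bur bone did (adjusted p = 0.00545). Signal over background limits Dll4 and Heyl.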
